A study of Arabidopsis thaliana with 6 samples.

Results

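The 7 genes described here encode the SR and RSZ splicing factors of Arabidopsis thaliana. They are SR30 (AT1G09140), SR34 (AT1G02840), SR34a (AT3G49430) and SR34b (AT4G02430) of the SR subfamily, and RSZ21 (AT1G23860), RSZ22 (AT4G31580) and RSZ22a (AT2G24590) of the RSZ subfamily. They were picked by gene identifier from the 33602 genes of the count table, and all 7 were found there. The RNA came from whole plants of the wild type Col-0 (WT, 3 libraries) and of a prmt5 mutant in the Col background (3 libraries). Seeds of both genotypes were stratified for 4 days at 4 °C, and the plants were harvested after 9 days at 22 °C in continuous light, without further treatment. The labels name no prmt5 allele and do not say whether the libraries of a group came from separate cultures of plants, so p-values measure the spread between these libraries, which may be technical.

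SR proteins bind exonic sequences of a pre-mRNA through an RNA recognition motif and recruit the U1 particle and U2AF to the splice sites through a domain rich in arginine and serine. The plant SR subfamily resembles human SRSF1, and the RSZ subfamily, which carries a zinc knuckle, resembles human SRSF7. SR genes are themselves alternatively spliced, often at 1 long intron, and many of the resulting transcripts carry an early stop codon of the kind that nonsense-mediated decay recognises. PRMT5 is the enzyme that places symmetric dimethyl marks on arginines, among them those of the Sm proteins at the core of the spliceosomal particles.

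The results turn on a small set of splice sites, which are printed here from the TAIR10.1 reference on the strand of the gene, 5′ to 3′. A donor, the 5′ splice site, is shown with the first 6 intron bases in capitals. Its score is a sum of log2 odds over the last 3 exon bases and the first 6 intron bases, with weights from 50608 tested introns, whose median score was 7.05. The first set surrounds the alternative exon in the 5′ UTR of SR34a. The donor that ends the first exon (chr3:18331707-18331726) scored 7.98, and the donor at the end of the alternative exon (chr3:18332487-18332506) scored 1.04, at percentile 1.0 of those introns.
SR34a first donor: cccccgGTACGGattcattc
SR34a donor at the end of the alternative exon: attttgGTCTTAccatgttt
An acceptor, the 3′ splice site, is shown with the final AG of the intron in capitals. The acceptor of the alternative exon (chr3:18332228-18332253) scored 5.72 and the downstream acceptor that skips it (chr3:18332622-18332647) scored 6.68, on a score built likewise from 14 intron bases and 1 exon base.
SR34a acceptor of the alternative exon: acatgctttctttatgatAGatggca
SR34a downstream acceptor: ctttttattctcatgtgcAGtttccc
The second set holds the donors of the introns that were called as raised under all alternatives run, besides the SR34a stretch above. These are intron 4 (chr1:2945186-2945205, minus strand, score 6.75) and intron 9 (chr1:2944330-2944349, minus strand, score 5.27) of SR30, intron 11 of SR34 (chr1:629316-629335, score 2.25), and a coding-region intron of SR34a (chr3:18333981-18334000, score 5.55).
SR30 intron 4 donor: accgcgGTTTGTagagtctt
SR30 intron 9 donor: caggagGTCTTTtttttttt
SR34 intron 11 donor: ccttctGTGAGTaacaagat
SR34a coding-region intron donor: atccggGTACCAtttctcta
The third set holds the competing acceptors of the long introns of SR30 and SR34, where the choice of site sets the end of the protein. The near and far acceptors of SR30 (chr1:2943559-2943584 and chr1:2943221-2943246, minus strand) scored 7.37 and 11.22. The first, middle and far acceptors of SR34 (chr1:628757-628782, chr1:628915-628940 and chr1:629268-629293) scored 6.59, 1.17 and 9.59.
SR30 near acceptor: ttgcgttgtttgttttctAGatctgg
SR30 far acceptor: ggtttttggtcttgctgcAGgtccca
SR34 first acceptor: aaaatggttttgtttcatAGatatgg
SR34 middle acceptor: ctaatttacattgctgctAGatggat
SR34 far acceptor: cttttcttggacttttgcAGatcgcg

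The libraries held 38564256 to 75461631 gene counts. PRMT5, the gene named in the mutant label, was at 30.17, 28.67 and 31.06 CPM (counts scaled to a library of 1000000) in WT and at 34.67, 28.91 and 33.12 CPM in prmt5, with a log2 difference of 0.11 (SE 0.07, edgeR adjusted p = 0.30). Since the allele is not named, this level does not check the label. PRMT5 also overlaps a neighbouring gene. In the tests described below, 2 of its 9 tested introns were raised in prmt5, against 21.6% over all introns. Of its 2 tested junctions, 2 were called, against 5.9% over all genes. What these calls say of the label was not tested. Of 3 green tissue markers, LHCB2.1 and CAB3 were lower in prmt5 and RBCS1A did not pass the test, and the summed level of the 3 was 19300 to 22100 CPM in WT and 16800 to 18800 CPM in prmt5. The 4 root markers summed to 37.8 to 48.5 CPM in WT and 43.0 to 53.4 CPM in prmt5. Of these, only EXPA7 was called, as higher. CASP1 and COBL9 had log2 differences of 0.18 and 0.27. NRT2.1 went the other way, at -1.0 (SE 0.355, edgeR adjusted p = 0.051). The 3 flower markers summed to 0.828 to 0.969 CPM in WT and 0.522 to 0.911 CPM in prmt5. The part of tissue proportions in the levels below was not tested. In whole plants, fewer cells of a type and less RNA per cell cannot be told apart. No member overlaps another gene in the table, and 0 of their 50-base stretches recur elsewhere in the nuclear genome.

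The level of 2 of the 7 genes rose in prmt5 and that of none fell. These were SR34a and RSZ22a. The threshold was an adjusted p under 0.05 in edgeR's quasi-likelihood test over 22509 genes, at which 33.3% of all genes were called, 17.9% of them as higher and 15.4% as lower. The count of 2 of 7 is therefore close to the background. The median log2 difference was 0.07 over the 7 genes and 0.01 over all tested genes.

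SR34a showed the largest difference among the 7. Its level was 60.01, 60.63 and 59.86 CPM in WT and 125.6, 110.0 and 111.1 CPM in prmt5. Every prmt5 library was well above the WT libraries, which lay within 1 CPM of each other. The mean rose from 60.17 ± 0.41 to 115.6 ± 8.72 CPM (SD, n = 3 each), a 1.92-fold change with a log2 difference of 0.94 (SE 0.07, edgeR adjusted p = 4.1e-06). When its level was taken from the constitutive exon bins alone, the log2 difference was 0.78 (edgeR adjusted p = 1.2e-05).

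The other 3 SR subfamily genes did not pass the test. SR34 was at 100.9, 104.6 and 106.6 CPM in WT and at 115.3, 105.3 and 111.2 CPM in prmt5, and the groups overlapped. SR30 was at 70.84, 72.06 and 71.04 CPM in WT and at 77.74, 72.34 and 74.42 CPM in prmt5. Its groups did not overlap, but the log2 difference was 0.07 with a 95% interval of -0.05 to 0.19 (edgeR adjusted p = 0.39). SR34b was at 21.91, 20.81 and 20.87 CPM in WT and at 22.64, 20.18 and 21.28 CPM in prmt5, with a 95% interval of -0.12 to 0.14 for the log2 difference.

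Among the RSZ genes, RSZ22a was at 27.78, 29.72 and 30.08 CPM in WT and at 41.46, 37.20 and 38.16 CPM in prmt5. The groups were separate, and the mean rose 1.33-fold, from 29.19 ± 1.24 to 38.94 ± 2.24 CPM (SD, n = 3 each; log2 difference 0.42, SE 0.07, edgeR adjusted p = 6.8e-04). Its close relative RSZ22 was at 46.12, 49.77 and 53.42 CPM in WT and at 54.36, 47.87 and 53.71 CPM in prmt5, with overlapping groups and a 95% interval of -0.08 to 0.21 for the log2 difference. RSZ21 was at 21.36, 24.08 and 21.55 CPM in WT and at 19.39, 17.79 and 21.52 CPM in prmt5. Its log2 difference was -0.18 (SE 0.08, edgeR adjusted p = 0.11), and passed the threshold when prmt5 replicate 3 was left out (-0.26, edgeR adjusted p = 0.047).

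**Figure D1:**
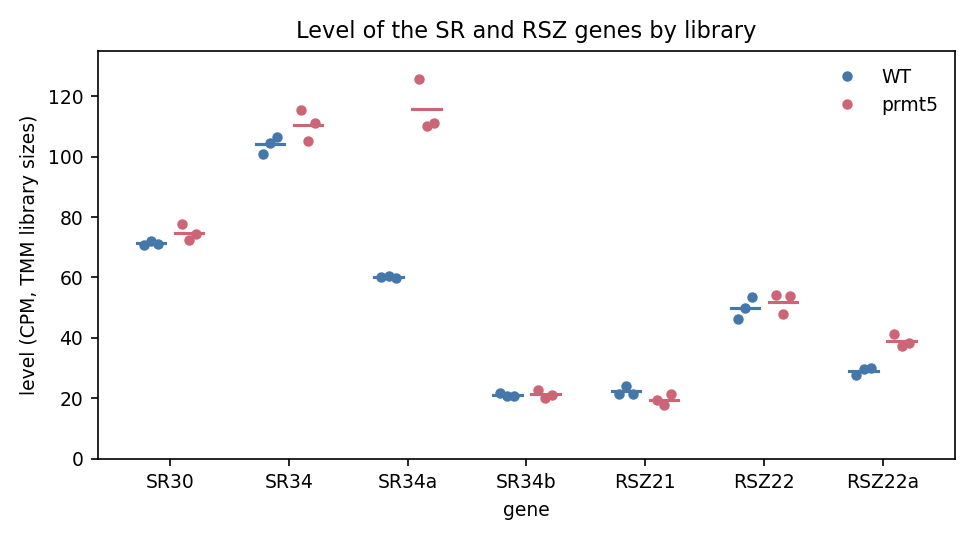
Level of each gene in CPM, with 1 point per library and a line at the group mean, for 3 WT and 3 prmt5 libraries. The prmt5 points of SR34a lie between 110.0 and 125.6 CPM against 59.86 to 60.63 CPM in WT, and the RSZ22a groups are also separate.

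Levels were compared between genes per kilobase of exon. In WT, SR34 stood highest at 65.3 ± 1.82 CPM per kb (SD, n = 3), followed by RSZ22 at 49.0 ± 3.59, SR30 at 44.3 ± 0.41, SR34a at 36.0 ± 0.24 and RSZ22a at 29.2 ± 1.24 CPM per kb. RSZ21 at 13.8 ± 0.94 and SR34b at 13.04 ± 0.38 CPM per kb were lowest, and these were the only neighbours in the order whose libraries overlapped. In prmt5, SR34a at 69.2 ± 5.22 CPM per kb overlapped SR34 at 69.4 ± 3.17 CPM per kb at the top of the order. RSZ22 at 51.2 ± 3.52 and SR30 at 46.5 ± 1.69 CPM per kb followed, and their libraries overlapped each other. The 3 genes whose centred log2 CPM lay nearest to that of SR34a over the 6 libraries were HB2 (AT3G10520, Euclidean distance 0.0517), ARP9 (AT5G43500, 0.0844) and AT5G15070 (0.1), with log2 differences of 0.96, 0.92 and 0.90.

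SR34a also changed in the make-up of its transcript. Exon bins are stretches of exon between annotated boundaries, and their counts were tested against the count of their gene. Of 89 bins of the 7 genes, 84 were tested and 1 was called, bin 3 of SR34a, against 0.121% of the 129447 bins tested over all genes (0.0749% higher, 0.0456% lower). This bin of 245 bases (chr3:18332248-18332492, TAIR10) lies in the 5′ UTR. It is annotated as a skipped exon and is called the alternative exon here. Few junctions left its end, with 8 counts in WT and 6 in prmt5, against 187 and 773 that entered it. Where the bases up to bin 4 are kept, the event is an upstream acceptor of bin 4 and not a separate exon. Bin 3 held 6.25%, 5.09% and 5.81% of the gene count in WT and 12.6%, 13.3% and 12.4% in prmt5. The groups were separate, and the ratio rose by 1.14 on the log2 scale (SE 0.09, edgeR adjusted p = 8.4e-04). The other SR34a bins with at least 5 counts on average had prmt5-to-WT ratios of CPM between 1.52 and 1.89, and bin 3 had a ratio of 4.28.

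The junctions into and around the alternative exon moved in the same direction as its count. From the first donor, the share of junction counts that entered the exon at base 18332248 was 19.2%, 13.99% and 18.9% in WT and 51.3%, 48.1% and 46.7% in prmt5. In prmt5 about as many junctions entered the exon as skipped it, whereas skipping dominated in every WT library. The junction into the exon rose relative to its cluster of alternatives by 1.46 on the log2 scale (SE 0.16, edgeR diffSpliceDGE adjusted p = 1.2e-08). The junction that skips it, from base 18331712 to base 18332642, fell by 0.66 (SE 0.14, adjusted p = 1.4e-03 in the same diffSpliceDGE test). The shares rest on 1033 junction counts in WT and 1593 in prmt5 for these 2 junctions, and 1 further junction from the donor had 4 counts in WT.

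The 149 bases that follow bin 3 (chr3:18332493-18332641), which 1 of 7 RefSeq transcripts removes as an intron, rose as well. Their count was 3.01%, 2.65% and 3.06% of the gene count in WT and 10.0%, 9.55% and 8.58% in prmt5, a rise of 1.68 on the log2 scale (SE 0.13, edgeR adjusted p = 1.7e-13). Per base, the segment reached 10.3 ± 0.30% of the density of the next exon bins in WT and 34.9 ± 2.86% in prmt5 (SD, n = 3 each), and bin 3 reached 12.3 ± 0.33% and 28.8 ± 0.50%. The junctions that remove the segment, from the donor printed above or from another at base 18332471, totalled 20, 13 and 19 counts in WT and 16, 9 and 20 counts in prmt5. The junction into the exon meanwhile went from 79, 27 and 81 counts in WT to 263, 191 and 319 counts in prmt5. Per use of the exon acceptor, removal was counted at 25.3%, 48.1% and 23.5% in WT and at 6.08%, 4.71% and 6.27% in prmt5, with separate groups (two-sided exact permutation p = 0.1, the smallest possible). Upstream of the exon, the 535 intron bases between the first donor and bin 3 (chr3:18331713-18332247) went from 1.41%, 1.35% and 1.54% of the gene count to 0.505%, 0.916% and 0.873%. This was the only member intron called as lower (log2 difference -0.93, SE 0.23, edgeR adjusted p = 2.0e-03), and against library size rather than gene count its log2 difference was 0.01 (adjusted p = 0.99).

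**Figure D2:**
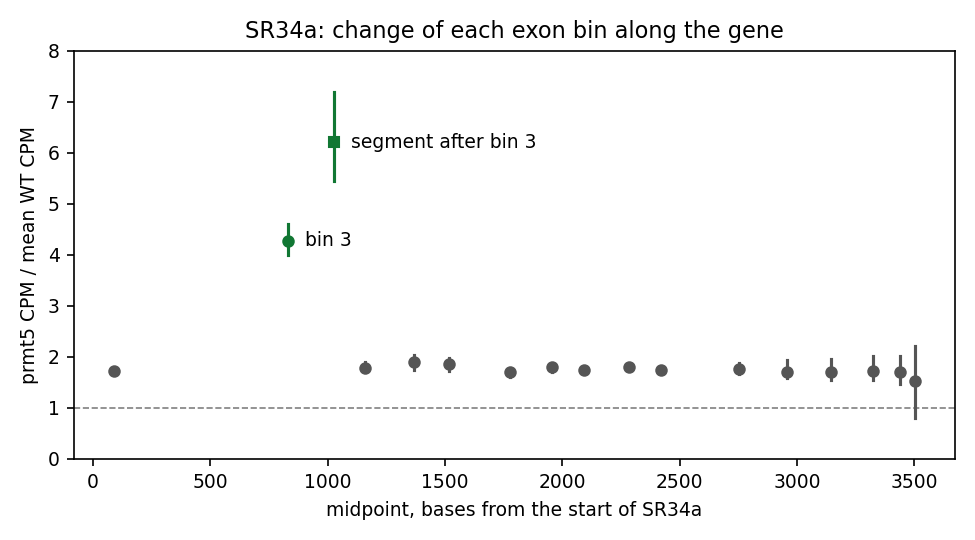
Ratio of prmt5 CPM to the mean WT CPM for each SR34a exon bin with at least 5 counts on average and for the segment after bin 3, placed by its distance from the gene start. Points are the mean of 3 prmt5 libraries, bars run from the lowest to the highest library, and the dashed line marks no change. Bin 3 at 4.28 and the segment at 6.21 stand above the other bins, which lie between 1.52 and 1.89.

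Reading frames were followed in transcripts assembled from the bins. With the exon skipped, the SR34a leader before the annotated start was 200 bases long and held 1 upstream ATG. With bin 3 and the segment included it was 594 bases long and held 11 upstream ATGs. The protein of 300 codons was the same in both.

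Of 137 junctions of the 7 genes, 67 were not marked as annotated in the table, and 18 in 7 clusters had enough counts for the test of junction choice. Of these 18, 3 were called, against 5.9% of 8106 junctions over all genes (3.21% higher, 2.69% lower). Besides both SR34a junctions, this was the junction from the SR34 long intron donor to its middle acceptor.

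SR34 spliced the long intron from a donor at base 628469 mainly to 3 acceptors, over which the shares are given. Another acceptor had 3 counts in WT and 5 in prmt5 and was left out. The far acceptor at base 629288, which gives the full protein of 303 codons, took 78.2%, 80.0% and 82.2% of the junction counts in WT and 74.7%, 73.1% and 78.0% in prmt5. The first acceptor at base 628777 opens an exon of 80 bases that the table does not mark. It took 18.03 ± 1.36% in WT and 20.2 ± 2.76% in prmt5 (SD, n = 3 each), with overlapping groups. The middle acceptor at base 628935 took 2.82%, 1.45% and 1.30% in WT and 4.67%, 4.20% and 4.81% in prmt5, on 31 and 72 counts. Its junction rose by 1.33 on the log2 scale relative to the cluster (SE 0.38, diffSpliceDGE adjusted p = 0.024). The call was lost when WT replicate 2 or 3 (adjusted p = 0.079 and 0.23) or prmt5 replicate 1 or 3 (0.064 and 0.093) was left out. Transcripts through the first acceptor end after 272 codons, and those from the long intron donor straight to the middle acceptor after 285 codons. The stops lie 522 and 403 bases before the last exon junction. The middle acceptor was also joined from the end of the 80-base exon, at base 628856, with 273 counts in WT and 268 in prmt5. Those counts belong to the form of 272 codons and are not in the shares above.

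SR30, whose long intron also offers alternative acceptors, used the near acceptor at base 2943564 for 56.5%, 54.8% and 59.1% of its junction counts in WT and for 65.6%, 75.3% and 65.6% in prmt5. The groups did not overlap, and the means were 56.8 ± 2.13% and 68.8 ± 5.58% (SD, n = 3 each) on 1020 and 878 counts. The edgeR diffSpliceDGE test did not call either junction (adjusted p = 0.56 for the near and 0.25 for the far acceptor), the exact permutation test of the share gave p = 0.1, the smallest it allows with 3 against 3 libraries, and limma's diffSplice called both (adjusted p = 0.047). The stretch that the near acceptor adds, bin 3 of SR30, reached 29.3 ± 1.49% of the density of the flanking bins in WT and 37.8 ± 3.798% in prmt5. Its test against the gene count gave a log2 difference of 0.23 (SE 0.07, edgeR adjusted p = 1.0). The near acceptor gives 256 codons with the stop 359 bases before the last junction, and the far acceptor gives 268 codons.

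SR34b kept its long intron in much of its RNA in both genotypes. This intron of 387 bases (chr4:1070887-1071273) reached 63.2%, 52.1% and 61.9% of the density of its flanking exon bins in WT and 60.3%, 66.9% and 58.2% in prmt5. The groups overlapped, and the log2 difference of its count relative to the gene count was 0.07 with a 95% interval of -0.18 to 0.33 (edgeR adjusted p = 0.78). From its donor, the nearer of both tested acceptors took 70.6 ± 8.44% of 83 junction counts in WT and 62.1 ± 14.7% of 64 in prmt5 (SD, n = 3 each), and neither junction was called. The table lists 6 more junctions from this donor, with 25 counts in WT and 33 in prmt5, and over all of them the share was 53.2 ± 8.94% in WT and 40.4 ± 1.15% in prmt5 (SD, n = 3 each), with separate groups and no test. Upstream, the table lists 1 acceptor for the donor at base 1070417, at base 1070526, with 399 counts over the 6 libraries. Reading from the annotated start through that acceptor gives a stop after 178 codons, 757 bases before the last junction. In RefSeq, 1 of 4 transcripts uses that acceptor and the other 3 use an acceptor 10 bases further on. The used acceptor scored 8.66 and the other -4.21, and both are printed below from chr4:1070506-1070531 and chr4:1070516-1070541.
SR34b used acceptor: atattctttattttgtccAGataaaa
SR34b acceptor 10 bases downstream: ttttgtccagataaaaaaAGctcgat

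RSZ22 has a pair of acceptors 9 bases apart in intron 4. The farther, at base 15307779, took 0.435%, 1.15% and 0.825% of the junction counts in WT and 2.52%, 2.87% and 2.097% in prmt5, on 10 and 34 counts. The groups were separate but the test of its junction did not pass (log2 difference 1.64, SE 0.53, diffSpliceDGE adjusted p = 0.058). RSZ21 and RSZ22a had no cluster with enough counts for this test.

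**Figure D3:**
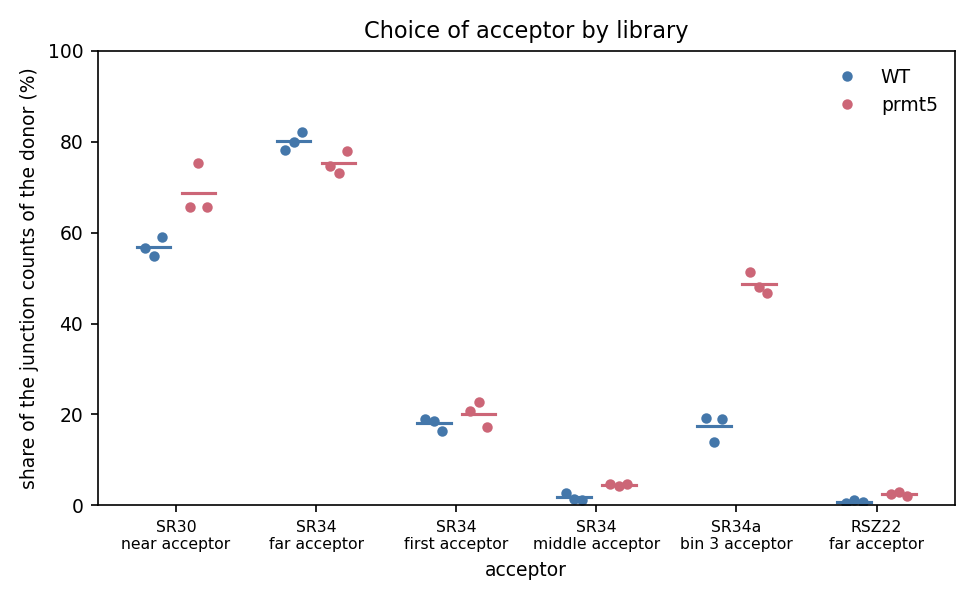
Share of the junction counts of a donor that used the acceptor named, in percent, with 1 point per library and a line at the group mean. The SR34a acceptor of bin 3 goes from 13.99 to 19.2% in WT to 46.7 to 51.3% in prmt5, and the other acceptors differ by less.

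Reads within introns were also tested against the count of the gene. Of 63 introns of the 7 genes, 52 had enough counts for the test, 10 were raised and 1 was lowered. The share raised was 19.2%, against 21.6% raised and 0.518% lowered among 53291 introns over all genes, so the members did not stand above the background. The median log2 difference was 0.37 over the 52 introns, as over all tested introns. The raised introns lay in SR30 (4 of 11 tested), SR34a (3 of 12), SR34 (1 of 12), SR34b (1 of 5) and RSZ22a (1 of 5), and no tested intron of RSZ21 (3) or RSZ22 (4) was called. For RSZ21, 2 of 5 introns fell below the minimum count. For SR34b only 5 of 12 introns were tested, for RSZ22 4 of 5 and for SR34a 12 of 13.

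SR30 carried the largest rise. Intron 4 (chr1:2945115-2945199) went from 3, 2 and 5 counts in the WT libraries to 34, 26 and 62 in prmt5, or 0.0638%, 0.0708% and 0.0971% of the gene count against 0.816%, 0.862% and 1.21%. The ratio rose by 3.58 on the log2 scale (SE 0.40, edgeR adjusted p = 2.1e-09), and it stayed a small part of the RNA. Intron 9 of SR30 (chr1:2944247-2944343) went from 6, 11 and 11 counts in the WT libraries to 30, 38 and 67 in prmt5, and its ratio rose by 2.27 on the log2 scale (SE 0.34, edgeR adjusted p = 1.4e-06). Keeping intron 4 ends the reading frame after 112 codons and keeping intron 9 after 237 codons, with the stop 538 and 175 bases before the last junction.

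In SR34, intron 11 (chr1:629322-629417), which lies in the coding region or the 3′ UTR depending on the transcript, went from 11, 8 and 6 counts in the WT libraries to 46, 33 and 30 in prmt5. Every prmt5 library was above every WT library, and the ratio rose by 2.15 on the log2 scale (SE 0.36, edgeR adjusted p = 1.1e-05). In SR34a, the coding-region intron at chr3:18333987-18334216 went from 23, 20 and 34 counts in the WT libraries to 132, 70 and 113 in prmt5, a rise in the ratio of 1.19 on the log2 scale (SE 0.22, edgeR adjusted p = 5.2e-05). This is a rise relative to the gene count, which itself rose. Keeping the SR34 intron gives 290 codons and keeping the SR34a intron 207 codons.

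The other 5 raised introns were smaller or less steady. These were intron 3 (log2 difference 1.09) and intron 7 (1.53) of SR30, the SR34a intron at chr3:18333847-18333929 (1.12), the SR34b intron at chr4:1071675-1071842 (1.13), which RefSeq places in the 3′ UTR, and intron 4 of RSZ22a (1.21), with edgeR adjusted p from 0.012 to 0.026. Each of them lost the call in DESeq2, where adjusted p ran from 0.058 to 0.13, and without at least 1 library. For intron 7 of SR30 the groups overlapped, with 0.117% of the gene count in prmt5 replicate 3 against 0.106% to 0.136% in WT. The long introns of SR30 (chr1:2943565-2944168, 2.65 ± 0.75% of the gene count in WT and 3.30 ± 0.49% in prmt5) and SR34 (chr1:628470-628934, 4.79 ± 0.28% and 5.13 ± 0.26%) were not called. The SR34 stretch runs only to the middle acceptor and holds the 80-base exon, so its count does not measure retention alone. The longest introns of RSZ21, RSZ22 and RSZ22a, counted over 205, 199 and 157 bases, stayed below 1.2% of the gene count in every library and were not called. The RSZ22 stretch is part of a spliced intron of 203 bases, whose junction had 726 counts in WT and 614 in prmt5.

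**Figure D4:**
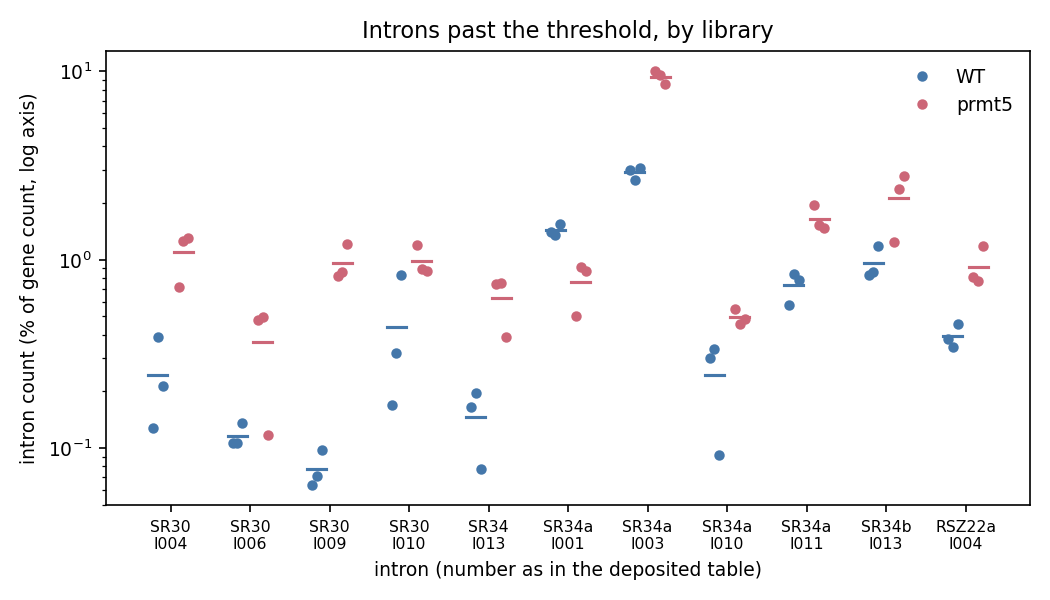
Intron count as a percent of the gene count for the 11 introns past the threshold, on a log axis, with 1 point per library and a line at the group mean. Intron I009 of SR30 is intron 4 of the text and goes from at most 0.0971% in WT to at least 0.816% in prmt5, and I001 of SR34a is the one that was lower.

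Donor scores were compared between the raised and the other introns as a description. The median score was 5.27 over the 10 raised introns, with a range of 1.04 to 8.11. It was 7.90 over the 41 tested introns that were not called, with a range of 1.16 to 10.98. Both lowest scores belong to donors with little or no counted use. The donor at 1.04 ends bin 3 of SR34a, and its junction had 8 counts in WT and 6 in prmt5. The donor at 1.16 starts an RSZ22 stretch for which no junction was listed. The RSZ22 donor used there scored 8.66, on 726 counts in WT and 614 in prmt5. The median length was 96.5 bases for the raised and 95 bases for the uncalled introns. SR34 intron 11, printed above, stood at percentile 2.9 of the donor scores of the series, SR30 intron 9 at 22.2 and SR30 intron 4 at 43.4. No test was made, since the introns share 7 genes.

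**Figure D5:**
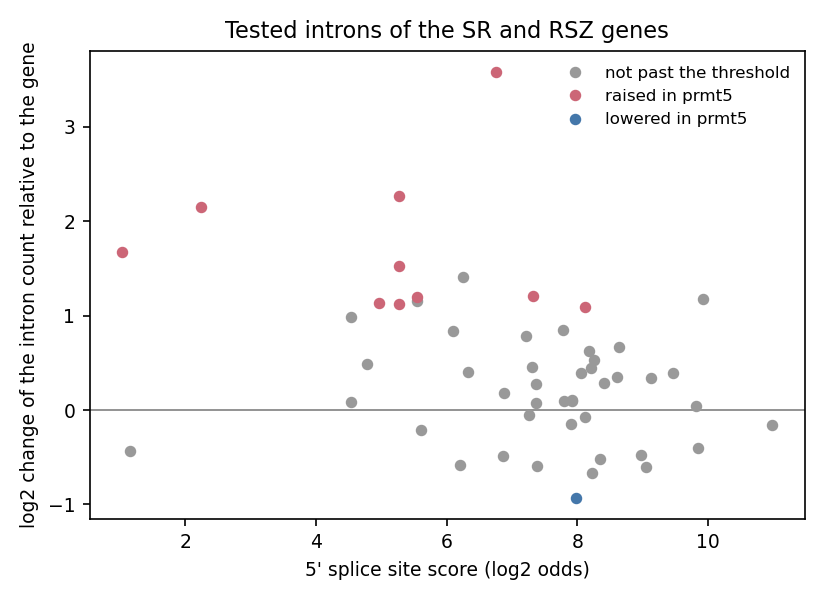
Log2 change of the intron count relative to the gene count against the donor score for the 52 tested introns, with 1 point per intron, coloured by whether it was raised, lowered or not past the threshold. The raised introns have a median score of 5.27 against 7.90 for those not called, and the ranges of both sets overlap.

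Of 11 other SR genes of Arabidopsis, from the RS, RS2Z, SC and SCL subfamilies, 6 rose, 1 fell and 4 did not pass the test, against 17.9% higher and 15.4% lower over all genes. Their median log2 difference was 0.28. RS31, an SR protein specific to plants, rose from 39.98 ± 0.81 to 60.37 ± 3.55 CPM (SD, n = 3 each; edgeR adjusted p = 5.3e-05). SC35, the counterpart of human SRSF2, rose by 0.49 on the log2 scale, RS40 by 0.37 and RS31a by 0.67, and each of these 3 overlaps a neighbouring gene in the table, so their counts are uncertain. RS2Z33, which also overlaps a neighbour, fell by 0.20. Among 54 tested introns of these genes, 9 (16.7%) were raised, against 21.6% over all introns. Whether these genes differ from the 7 members was not tested.

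The kinases that phosphorylate SR proteins rose in 4 of 5 cases and fell in none, where 17.9% of all genes were higher. AFC2, a LAMMER kinase, went from 52.10 ± 1.24 to 81.11 ± 3.32 CPM (SD, n = 3 each; edgeR adjusted p = 2.7e-05). The related AFC1 and AFC3 rose by 0.48 and 0.50 on the log2 scale and PRP4KA by 0.36. AFC3 overlaps another gene. Of 39 tested introns of these kinases, 18 (46.2%) were raised and 3 were lowered, against 21.6% and 0.518% over all introns, and 8 of the 18 lay in AFC2. Of the SR-like genes, SR45a rose by 0.70 on the log2 scale (edgeR adjusted p = 3.1e-05), while SR45 did not pass (0.15, adjusted p = 0.09).

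Of 6 partners at the splice sites and in nuclear import, only U1-70K, the U1 protein that SR proteins contact, was called (log2 difference 0.25, edgeR adjusted p = 0.014). Over all genes 33.3% were called and 17.9% were higher, so 1 of 6 is not above the background. The U2AF subunits, which recognise the 3′ splice site, had log2 differences between -0.07 and 0.17 and were not called. Both ends of that range come from U2AF35 genes that overlap a neighbour, so their counts are uncertain. Among the nonsense-mediated decay factors, UPF3 rose by 0.20 (edgeR adjusted p = 0.029), where 17.9% of all genes were higher. UPF1 (0.22, edgeR adjusted p = 0.066) and UPF2 (0.09, adjusted p = 0.36) did not pass.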

How the data were processed

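The authors deposited raw read counts per gene, exon bin, intron and splice junction for each library. STAR and TAIR10 are named in the submitters' processing notes, with no version, and neither the counting program nor the strandedness is given in the sources used here. Per the labels' protocols, polyadenylated RNA was taken from 3 µg of total RNA and libraries had 12 PCR cycles. Counts carry no molecular identifiers. The edgeR SE and p-values rest on the spread between the libraries of a group. The members and lists were chosen with earlier results of these data known.

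Gene counts were tested over the whole table with edgeR 4.0.16 in R 4.3.3 (TMM, default filter, robust quasi-likelihood F test, two-sided, Benjamini-Hochberg, genotype as the only term). CPM use TMM library sizes. Introns (mean of at least 5 counts, gene mean of at least 50) and exon bins (at least 5) were tested with the log of the gene count plus 0.5 as offset, so that the coefficient is the log2 change of the ratio. The 5547 rows of original introns, which overlap other bins, were left out. Junctions (mean of at least 5 counts) sharing a donor or acceptor were tested with diffSpliceDGE. SE is the absolute log2 change over the square root of F. Every member, every member feature past the threshold, the longest intron and the most divided junction cluster of each member are named, and for other lists at most 4 genes by smallest p, beside RS2Z33 and the tested members of short lists, which were added after their values were seen. One listed gene is not reported here. Alternatives used DESeq2 1.42.0, limma 3.58.1, other filters and scalings, a replicate block, and leaving out each library. Coordinates are those of the deposited tables. In the TAIR10.1 reference, 98.9% of 110931 annotated nuclear junctions had GT and AG ends. The scripts were tested on simulated data.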

Additional observations from a re-analysis of the deposited data

How the results depend on the processing

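The count of called members in gene level was 2 under every alternative of scaling, filter and tool, and 2 to 3 when 1 library was left out. RSZ21 was the added gene. The count of called introns was 11, fell to 6 in DESeq2, all of them among the 11, and ran from 8 to 15 without 1 library. It was 15 with library size in place of the gene count, where the SR34a intron upstream of bin 3 had a log2 difference of 0.00622 rather than -0.93. Here the ratio no longer follows the gene count, which rose. The called exon bin was 1 in every run. The count of called junctions was 3, rose to 5 in limma's diffSplice, where both SR30 junctions were added, and ran from 2 to 3 without 1 library. The cause of the changes with DESeq2 and limma was not tested. With replicate number as a block, 2 genes, 11 introns, 1 exon bin and 3 junctions were called. Same-numbered libraries had correlations of -0.111, -0.141 and -0.0628. The pairs WT 1 with prmt5 3, WT 2 with prmt5 1 and WT 3 with prmt5 2 had 0.121, 0.182 and 0.175. The remaining pairs ran from -0.115 to 0.00791. The block covers same-numbered pairs only, so pairing under other numbers was not tested. Over all genes the block called 5746 in place of 7488 genes, and 37 in place of 156 exon bins. limma's diffSplice called 958 junctions over all genes in place of 478. Over named features, 404 of 434 values kept their side of the threshold, 25 lost the call with the same sign, 4 gained one and 1 changed sign and lost the call. The sign changed in 17 values, of which 16 were called in neither fit, SR34b and SR30 among them. Depth limits the rare junctions and introns. An example is the direct SR34 junction from the long intron donor to the middle acceptor, with 31 counts in WT and 72 in prmt5.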

Other observations

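RSZ22a, whose level rose, carries a junction inside its last exon bin, in the 3′ UTR, without an annotation mark in the table. It joins base 10451067 to base 10451180 of chromosome 2. It went from 109, 48 and 102 counts in WT to 77, 43 and 63 in prmt5, or 5.91%, 4.12% and 4.68% of the gene count against 3.47%, 2.77% and 2.39%. The share was lower in every prmt5 library, and the two-sided exact permutation test gave p = 0.1, the smallest that 3 against 3 libraries allow. The share is taken of a gene level that rose 1.33-fold, and the junction was not tested against library size. This junction was picked out after its values were seen.

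A coding-region intron of RSZ21 (chr1:8428819-8428914 on the minus strand) fell below the minimum count for the intron test. It went from 0, 0 and 2 counts in WT to 5, 5 and 13 in prmt5. Its donor scored 2.79, and it too was picked out after its values were seen.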
